A study of Rattus norvegicus with 6 samples.

Results

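The genes described here are 10 genes of the fat cell: Plin1, Plin4, Cidec, Pparg, Lpl, Fabp4, Pck1, Adipoq, Retn and Lep. They were taken by name from a table of 37203 genes, in which all 10 are listed, and they cover the lipid droplet, fat metabolism, the fat cell's master regulator and the hormones of fat. Adipocytes store triglyceride in a droplet coated by perilipins and CIDE proteins, take up fatty acids that lipoprotein lipase frees from lipoproteins, and secrete adipokines. Jaw bone, like other bone, holds marrow, and marrow adipocytes arise from the stromal lineage that also yields osteoblasts. The nuclear receptor PPAR gamma, product of Pparg, directs their differentiation and acts on most of the other genes named here.

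The alveolar process is the ridge of the jaw that carries the teeth. Total RNA of alveolar tissue came from rats with orthodontic tooth movement, in a study of corticision, a surgical cut into cortical bone. The titles give 3 case libraries (case 5, case 6 and case 9) and 3 control libraries (control 5, control 6 and control 10). All teeth were moved; the source field gives the case libraries as moved without corticision and the control libraries as moved with it, which is the reverse of the usual sense of the titles. Groups are named by title here, every difference is case minus control, and which field is right was not settled. Strain, age, time and animals per library are not stated, so the p-values cover the spread between these libraries, which may be technical. Nor do the labels say where fat cells lay in the tissue, and marrow fat cannot be told apart from other fat in these data.

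Totals ran from 10886303 to 14433740 counts per library. The edgeR quasi-likelihood test covered 16066 genes with enough counts and called 0 of them at a Benjamini-Hochberg adjusted p under 0.05. DESeq2 covered 26021 genes, of which 9494 had no adjusted p and could not be called, and it called 26 (0.0999% of the 26021). With limma-voom 0 were called, and 666 genes (4.15%) had an unadjusted edgeR p under 0.05. Other tissues were unevenly present: oral epithelium markers summed to 3720 CPM (counts scaled to library size) in control 5 and to 19.2 to 49.5 CPM elsewhere, and tooth-forming cell markers to 459.6 CPM in case 5, 89.8 CPM in control 5 and 0.640 to 7.79 CPM in the other libraries.

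Of the transcripts taken as adipocyte markers, Plin1, Plin4, Adipoq, Cidec and Cfd had counts in all 6 libraries, while Lep was close to 0. Plin4 is also made in muscle. Cfd did not keep pace with Adipoq: control 5 held 949 counts of Cfd and 38 of Adipoq, case 6 held 3517 and 1150. Over the tested genes of the 10, 1 library, case 6, carried most of the difference between the groups. All 10 genes together took 0.0150% of counts in case 5 (95% Wilson interval 0.0143 to 0.0157%), 0.0490% in case 6 (0.0479 to 0.0502%) and 0.0131% in case 9 (0.0124 to 0.0137%). In the controls the share was 0.0107% in control 5 (0.0101 to 0.0114%), 0.0125% in control 6 (0.0119 to 0.0131%) and 0.0212% in control 10 (0.0203 to 0.0220%). Case 6 thus stood above all others, and control 10 stood above case 5 and case 9. Lpl and Fabp4 held 848 and 763 of the 2395 counts in control 10. Plin1, Adipoq and Cidec alone took 0.00361% in case 5, 0.0143% in case 6 and 0.00127% in case 9. In control 5, 6 and 10 they took 0.000900%, 0.00213% and 0.00324%. For these genes the intervals of case 5 (0.00329 to 0.00396%) and control 10 (0.00293 to 0.00359%) overlapped. These intervals cover counting error only. In tissue RNA of this kind, more cells of a type and more RNA per cell cannot be told apart.

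**Figure D1:**
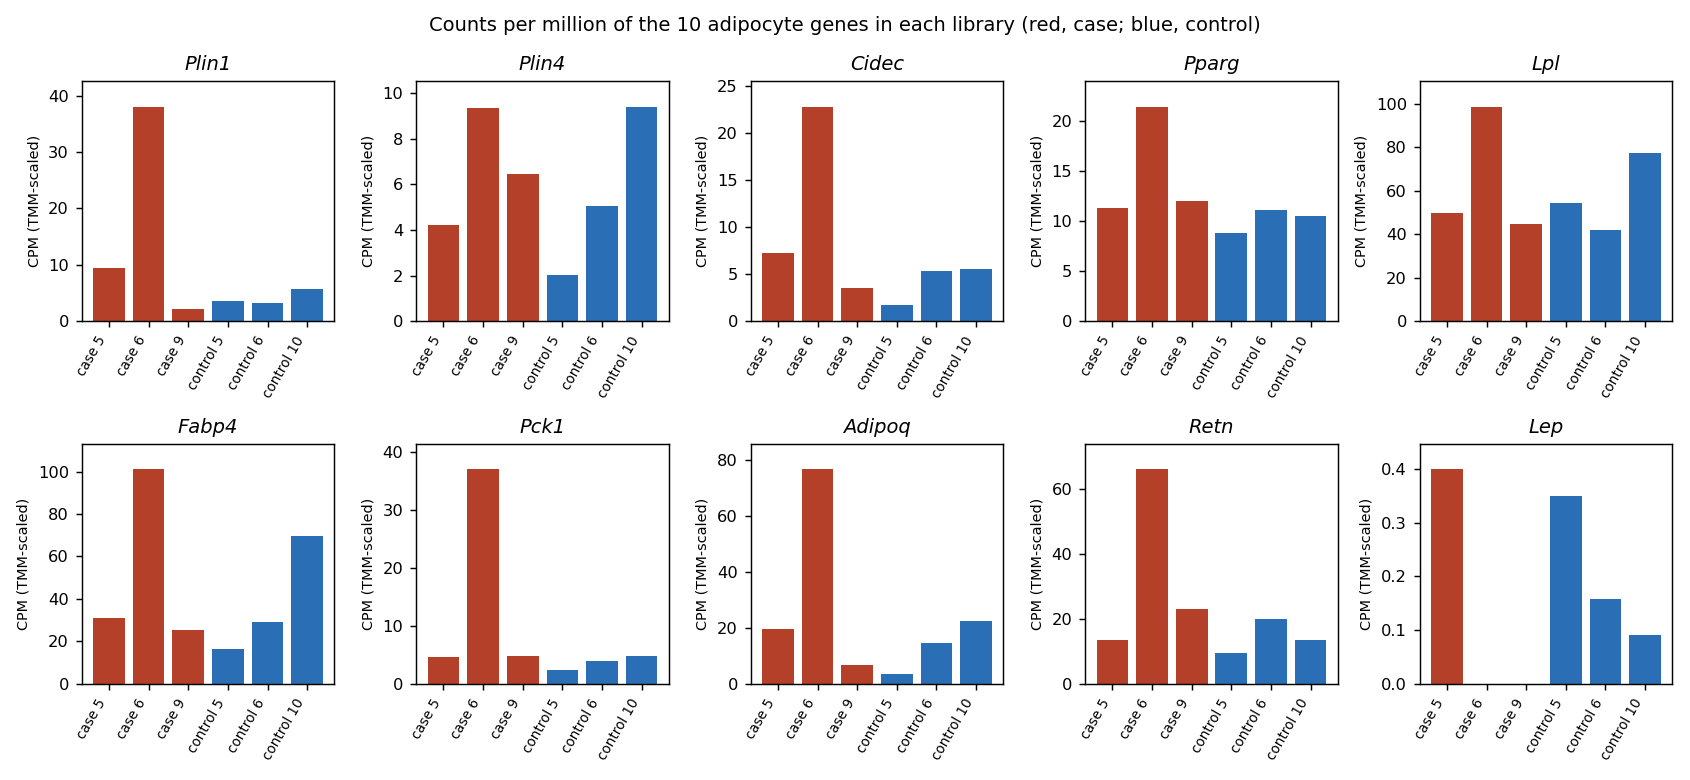
Bars give the CPM (counts scaled to library size, linear axes from 0) of each of the 10 genes in each library, case in red and control in blue. Case 6 is the highest bar in 8 of the 9 genes that could be tested, Plin4 being highest in control 10, and Lep rests on 0 to 5 counts.

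The lipid droplet proteins showed the pattern most plainly in Plin1, which encodes perilipin 1, the droplet coat that gates lipolysis in fat cells. Plin1 was at 9.51, 38.1 and 2.19 CPM in case 5, 6 and 9, against 3.501, 3.15 and 5.67 CPM in control 5, 6 and 10. Case 6 was at 4.002 times the level of case 5, the next highest, while case 9 was the lowest of all, so the groups overlapped. The fitted log2 fold change was 2.02 (SE 0.89), with an unadjusted p of 0.0545 and an adjusted p of 0.999.

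Cidec encodes a CIDE protein that enlarges droplets by moving lipid between them. It was at 7.19, 22.8 and 3.53 CPM in case 5, 6 and 9, against 1.75, 5.35 and 5.58 CPM in control 5, 6 and 10. As for Plin1, case 6 and then case 5 were highest, and case 9 lay within the range of the controls. The log2 fold change was 1.40 (SE 0.72, unadjusted p 0.0904, adjusted p 0.999). Plin4, a perilipin that coats small droplets and is also made in muscle, was at 4.23, 9.38 and 6.47 CPM in case 5, 6 and 9, against 2.01, 5.04 and 9.41 CPM in control 5, 6 and 10. Here case 6 and control 10 were level, and the log2 fold change was 0.29 (SE 0.55, unadjusted p 0.614).

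Adiponectin and resistin transcripts also peaked in case 6, while those of leptin were too few to compare. Adipoq encodes adiponectin, a hormone made almost wholly by fat cells and, in mice, by marrow stromal cells primed for fat. It was at 19.7, 76.5 and 6.81 CPM in case 5, 6 and 9, against 3.33, 14.6 and 22.3 CPM in control 5, 6 and 10. Case 6 stood 3.43-fold above control 10, the next highest, whereas case 5 and case 9 lay within the control range. The log2 fold change was 1.36 (SE 0.92, unadjusted p 0.179, adjusted p 0.999).

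Retn encodes resistin, which in rodents is secreted mainly by fat cells. It was at 13.5, 66.1 and 23.1 CPM in case 5, 6 and 9, against 9.37, 20.1 and 13.3 CPM in control 5, 6 and 10. Case 6 was 2.86-fold above case 9, which itself lay just above the controls, and case 5 lay among them. The log2 fold change was 1.26 (SE 0.58, unadjusted p 0.0627, adjusted p 0.999).

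Lep, which encodes leptin, the satiety hormone of fat, was close to the limit of detection. It had 5, 0 and 0 counts in case 5, 6 and 9, against 4, 2 and 1 counts in control 5, 6 and 10, and was too low to test. At 0 counts, counting error leaves room for up to 3, which is 0.200 CPM in case 6 and 0.252 CPM in case 9. Lep was thus listed at 0 in the library where adiponectin and perilipin 1 were highest.

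Among the metabolic genes, Pck1 set case 6 farthest apart. Its product, cytosolic phosphoenolpyruvate carboxykinase, makes the glycerol backbone for triglyceride in fat cells that lack glucose. Pck1 was at 4.63, 37.1 and 4.88 CPM in case 5, 6 and 9, against 2.45, 3.94 and 4.75 CPM in control 5, 6 and 10. Case 6 exceeded case 9, the next highest, 7.60-fold, while the other 5 libraries lay within 1.99-fold of each other. The log2 fold change was 2.07 (SE 0.84), and the unadjusted p of 0.0412, adjusted to 0.999, was the smallest among these genes.

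Lpl and Fabp4 had smaller fold changes, as had Plin4 (log2 fold change 0.29). Both Lpl and Fabp4 are also made outside fat cells, and the part of other cells in their values was not tested. Lpl encodes lipoprotein lipase, also made by muscle and macrophages, and was at 49.5, 98.6 and 44.7 CPM in case 5, 6 and 9, against 54.4, 42.0 and 77.5 CPM in control 5, 6 and 10. Case 6 was 1.27-fold above control 10, and case 5 and case 9 lay within the controls (log2 fold change 0.15, SE 0.35, unadjusted p 0.678). Fabp4 encodes a fatty acid carrier of fat cells that capillary endothelium and macrophages also make. It was at 30.8, 101 and 25.4 CPM in case 5, 6 and 9, against 16.3, 29.3 and 69.7 CPM in control 5, 6 and 10. Case 6 was highest and control 10 came next, with a log2 fold change of 0.45 (SE 0.66, unadjusted p 0.518).

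Pparg, the regulator, was the 1 gene of the 9 whose groups did not overlap. It was at 11.3, 21.4 and 12.02 CPM in case 5, 6 and 9, against 8.84, 11.1 and 10.5 CPM in control 5, 6 and 10. Case 5 lay narrowly above control 6, and case 6 was 1.78-fold above case 9. The log2 fold change was 0.56 (SE 0.29, unadjusted p 0.0947, adjusted p 0.999). That 1 of 9 genes had separate groups stands beside 8.47% of all tested genes.

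Over the 9 tested genes, 0 passed the adjusted threshold, as did 0% of all genes, and DESeq2 and limma-voom also called 0 of them (in DESeq2, which covered Lep as well, Lep had no adjusted p). At an unadjusted p under 0.05 edgeR had 1 of 9 (Pck1), against 4.15% of all genes, DESeq2 4 of 10 with a background of 3.39%, and limma-voom 0 of 9 with a background of 3.65%. All 9 fold changes were positive, against 46.3% of all tested genes, and their median log2 fold change was 1.26, against a median of -0.02 over all genes.

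Without case 6, 5 of 9 fold changes were positive, against 47.6% of all genes tested in that fit. The median log2 fold change of the 9 was then 0.20, with 0 of 9 at an unadjusted p under 0.05 (background 2.23%). Plin1 had a log2 fold change of 0.51, Retn 0.36, Pck1 0.36, Cidec 0.34 and Pparg 0.20. Adipoq was at -0.02, Plin4 at -0.04, Lpl at -0.30 and Fabp4 at -0.45. Leaving out each of the other 5 libraries gave medians from 0.90 (without control 5) to 1.66 (without case 5).

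**Figure D2:**
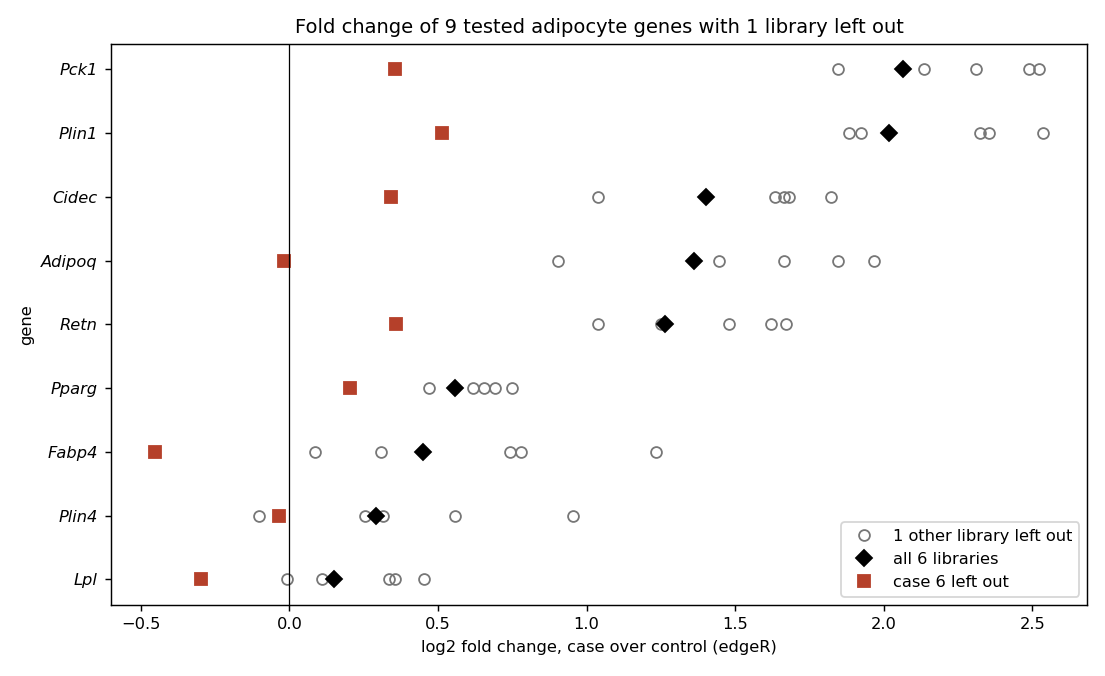
Each row gives the edgeR log2 fold change, case over control, of 1 of the 9 tested genes with all 6 libraries (black diamond), without case 6 (red square) and without each other library (grey circles). For Plin4 the value without control 5 (-0.10) lies left of that without case 6 (-0.04), and in the other 8 genes the red square is leftmost.

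Read by library, case 6 was the highest of the 6 in 8 of 9 genes, as it was for 14.2% of all tested genes. It stood at least 2-fold above every other library in 5 of 9 (Plin1, Cidec, Pck1, Adipoq and Retn), as it did for 0.305% of all tested genes, 49 of 16066. Among the remaining 4, Pparg came nearest to that line at 1.78-fold, and Retn at 2.86-fold was the nearest inside it. Control 5 was the lowest library in 7 of 9 genes (20.5% of all tested genes), the exceptions being Plin1 (case 9) and Lpl (control 6). After case 6, the next highest place went to case 5 for Plin1 and Cidec, to case 9 for Pck1, Pparg and Retn, and to control 10 for Adipoq, Fabp4 and Lpl.

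**Figure D3:**
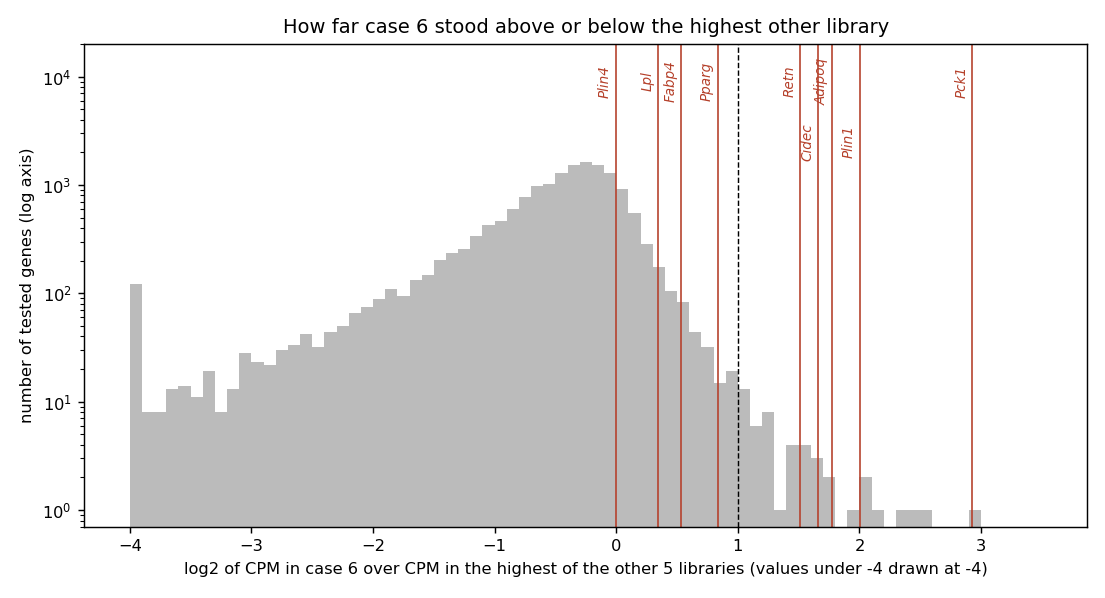
Grey bars count the 16066 tested genes (log axis) by the log2 ratio of CPM in case 6 to CPM in the highest of the other 5 libraries, and red lines mark the 9 adipocyte genes. The dashed line is a 2-fold excess, which 49 genes and 5 of the 9 reach, from Retn at 2.86-fold to Pck1 at 7.60-fold.

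The genes also varied against each other, which a ratio of counts within a library shows without any scaling. Cidec per Adipoq count kept the narrowest range, from 0.250 in control 10 to 0.526 in control 5, a spread of 2.11-fold over the 6 libraries. Plin1 per Adipoq count was 0.484, 0.497 and 0.321 in case 5, 6 and 9, against 1.05, 0.216 and 0.254 in control 5, 6 and 10. Lpl per Adipoq count spread most, from 1.29 in case 6 to 16.3 in control 5, or 12.7-fold. Pparg per Adipoq count spread 9.49-fold and was likewise lowest in case 6 (0.280). In control 5 these ratios rest on 38 Adipoq counts.

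Start-site sequence is shown for the 5 genes that stood at least 2-fold above every other library in case 6, to see what their promoters share. RefSeq's GRCr8 windows, 250 bases before to 50 after a start, were matched by symbol for 8 of the 10 genes. The windows are chr1:143086099-143086398 (minus strand) for Plin1, chr4:148137066-148137365 (minus strand) for Cidec, chr3:182348322-182348621 (plus) for Pck1, chr11:91240120-91240419 (minus) for Adipoq and chr12:6508524-6508823 (plus) for Retn. The build behind the counts is not given in the sources used here, so these positions belong to the reference and not to the counts. Each is printed 5′ to 3′ on the gene's strand. Capitals mark matches, on either strand, to any of the 8 motifs named after the sequences.
Plin1: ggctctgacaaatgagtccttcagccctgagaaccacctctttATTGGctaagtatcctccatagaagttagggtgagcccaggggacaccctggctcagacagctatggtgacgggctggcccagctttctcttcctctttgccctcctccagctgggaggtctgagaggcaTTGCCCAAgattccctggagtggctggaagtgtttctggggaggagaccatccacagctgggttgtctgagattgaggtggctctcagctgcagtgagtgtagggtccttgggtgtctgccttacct
Cidec: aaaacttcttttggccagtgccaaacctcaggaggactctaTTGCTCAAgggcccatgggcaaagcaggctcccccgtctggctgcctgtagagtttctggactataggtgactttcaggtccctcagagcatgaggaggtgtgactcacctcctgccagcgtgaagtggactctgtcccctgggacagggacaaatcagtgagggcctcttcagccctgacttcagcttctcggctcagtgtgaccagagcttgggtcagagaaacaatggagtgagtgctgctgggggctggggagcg
Pck1: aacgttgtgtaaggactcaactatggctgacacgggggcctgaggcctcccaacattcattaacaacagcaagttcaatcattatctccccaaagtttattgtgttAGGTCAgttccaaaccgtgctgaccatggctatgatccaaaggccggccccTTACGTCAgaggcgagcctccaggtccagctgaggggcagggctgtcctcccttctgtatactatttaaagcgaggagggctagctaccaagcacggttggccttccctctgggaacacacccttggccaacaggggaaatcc
Adipoq: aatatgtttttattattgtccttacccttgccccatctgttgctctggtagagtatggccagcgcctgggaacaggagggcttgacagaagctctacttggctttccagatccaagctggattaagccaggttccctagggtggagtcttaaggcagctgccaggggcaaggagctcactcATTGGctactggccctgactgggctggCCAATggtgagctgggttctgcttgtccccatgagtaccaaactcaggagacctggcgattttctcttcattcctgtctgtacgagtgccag
Retn: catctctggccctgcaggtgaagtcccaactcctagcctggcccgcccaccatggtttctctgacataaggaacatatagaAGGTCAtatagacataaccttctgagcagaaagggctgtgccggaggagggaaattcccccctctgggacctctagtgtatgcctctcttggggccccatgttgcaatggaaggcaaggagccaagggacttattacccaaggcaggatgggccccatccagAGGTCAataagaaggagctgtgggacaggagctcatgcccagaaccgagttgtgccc

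Of the 8 motifs, TATAAA is an element of the core promoter and CCAAT a common upstream element. Nuclear receptors bind AGGTCA, and PPAR gamma with its partner RXR binds its direct repeat, AGGTCANAGGTCA. Factors of the C/EBP family bind TTGCNNAA, cyclic AMP response elements read TGACGTCA or TTACGTCA, and CACGTG is an E-box. The shorter nuclear receptor motif lies within its direct repeat, so a match to the longer counts for both. No motif was found in more than 2 of the 5 windows. CCAAT was in those of Plin1 and Adipoq (37.5% of all 33469 windows hold it), TTGCNNAA in those of Plin1 and Cidec (10.6%), and AGGTCA in those of Pck1 and Retn (16.2%). TTACGTCA, the form known from the well-studied rat Pck1 promoter, was added to the search after that window had been seen, and was in it (0.807% of all). The core promoter element TATAAA (14.2%), the direct repeat AGGTCANAGGTCA (0.0538%), the response element TGACGTCA (1.83%) and the E-box CACGTG (6.42%) were in 0 of the 5. A match describes letters only, and elements beyond these windows were not searched.

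Other genes of fat biology were read from 12 lists, which held 96 genes in the table, 87 of them tested. Of these 87, 0 passed over all genes, and at an unadjusted p under 0.05 (4.15% of all tested genes, 302 higher and 364 lower) 6 were higher (Gpd1, Srebf1, Cfd, Klf15, Klf2 and Vcam1) and 4 lower in case (Fabp5, Apln, Cdh13 and Cav1). Case 6 was highest in 27 of 87, against 14.2% of all tested genes. It was at least 2-fold above every other library in 4 of 87, namely Agt, Pnpla2, Cidea and Cxcl12, against 0.305% of all tested genes. Their median log2 fold change was 0.15, with 56 of 87 positive, against 46.3% of all tested genes. Genes with separate groups (case higher, case lower) numbered 1 and 0 in fatty acid synthesis and in adipogenic transcription factors. They numbered 1 and 1 in other adipokines, 2 and 1 in marrow stroma, and 0 and 1 in fatty acid uptake, adipokine receptors and glucose handling. Over all tested genes 8.47% had separate groups, 651 higher and 710 lower.

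Of the other lipid droplet proteins, case 6 was highest in 2 of 7 tested, and the list's median log2 fold change was 0.02. Cidea, a CIDE protein of thermogenic and lipid-laden fat, was at 1.36, 4.79 and 1.18 CPM in case 5, 6 and 9, against 0.525, 1.34 and 2.28 CPM in control 5, 6 and 10. Plin2, the perilipin that most cell types use, was at 41.1, 68.0 and 99.1 CPM in case 5, 6 and 9, against 48.5, 77.8 and 80.9 CPM in control 5, 6 and 10. Unlike Plin1, Plin2 was highest in case 9 and not in case 6. Of the thermogenic fat genes, Ucp1, the uncoupling protein of brown fat, and Elovl3 were listed at 0 in all 6 libraries. The 4 tested thermogenic genes had a median log2 fold change of -0.56.

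Of the lipolysis genes, case 6 was highest in 3 of 7 tested (median log2 fold change -0.04). Pnpla2 encodes the lipase that begins triglyceride breakdown, and was at 0.0799, 17.8 and 4.12 CPM in case 5, 6 and 9, against 4.20, 4.01 and 2.92 CPM in control 5, 6 and 10. It rested on 1 count in case 5. Lipe, the hormone-sensitive lipase, was at 42.0, 69.2 and 48.7 CPM in case 5, 6 and 9, against 37.6, 31.2 and 42.9 CPM in control 5, 6 and 10 (unadjusted p 0.0511).

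Of the triglyceride synthesis genes, case 6 was highest in 5 of 8, with a median log2 fold change of 0.10. Gpd1, which supplies glycerol phosphate from glycolysis, was at 49.6, 90.3 and 15.5 CPM in case 5, 6 and 9, against 13.2, 27.9 and 18.3 CPM in control 5, 6 and 10. Case 6 and case 5 were highest, and case 9 lay within the controls (log2 fold change 1.39, SE 0.58, unadjusted p 0.0469).

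In the fatty acid synthesis list case 5 stood with case 6. The median log2 fold change was 0.60, with 8 of 9 positive. In these libraries the mean log2 CPM lay 0.78 (case 5) and 0.79 (case 6) above the median library, and that of the others between -0.26 and 0.07. Fasn, fatty acid synthase, was at 305.9, 236.5 and 130.8 CPM in case 5, 6 and 9, against 151.1, 164.0 and 122.2 CPM in control 5, 6 and 10. Srebf1, the regulator of lipid synthesis genes, had separate groups, at 67.3, 104.9 and 54.1 CPM in case 5, 6 and 9, against 49.2, 48.0 and 35.6 CPM in control 5, 6 and 10 (log2 fold change 0.77, SE 0.27, unadjusted p 0.0216, adjusted p 0.999). Thrsp, a protein that promotes lipogenesis, was at 28.4, 44.0 and 4.62 CPM in case 5, 6 and 9, against 3.501, 13.1 and 8.77 CPM in control 5, 6 and 10. Without case 6 the list had 7 of 9 positive and a median of 0.46.

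For other adipokines, case 6 was highest in 3 of 7 tested. Cfd encodes adipsin, the complement factor D of fat cells, and was at 129.8, 234.0 and 161.8 CPM in case 5, 6 and 9, against 83.1, 104.1 and 120.0 CPM in control 5, 6 and 10. Its groups did not overlap, and the log2 fold change was 0.77 (SE 0.25, unadjusted p 0.0157, adjusted p 0.999). Agt encodes angiotensinogen, which fat as well as liver makes, and was at 8.07, 52.6 and 5.88 CPM in case 5, 6 and 9, against 2.45, 7.24 and 10.1 CPM in control 5, 6 and 10. Case 6 exceeded control 10, the next, 5.19-fold. Apln, the vascular peptide apelin, ran the other way, at 6.15, 3.66 and 4.79 CPM in case 5, 6 and 9, against 8.05, 7.40 and 7.59 CPM in control 5, 6 and 10 (unadjusted p 0.0451). Apln likewise had separate groups. Of adipokine receptors, case 6 was highest in 1 of 4, and Cdh13, the cadherin that binds adiponectin, averaged 43.2 ± 7.15 CPM in the case libraries and 62.8 ± 10.2 CPM in the controls (SD, n = 3 each). Its groups were separate, and its log2 fold change was -0.54 (SE 0.18, unadjusted p 0.0204, adjusted p 0.999).

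Of the adipogenic transcription factors, case 6 was highest in 2 of 13, against 14.2% of all tested genes. Cebpb, an early inducer of Pparg, was at 30.4, 74.7 and 84.1 CPM in case 5, 6 and 9, against 28.7, 38.6 and 43.8 CPM in control 5, 6 and 10. Klf15, a late factor of fat cell differentiation, averaged 9.04 ± 2.37 CPM in the case libraries and 5.47 ± 1.10 CPM in the controls (SD, n = 3 each), with separate groups (log2 fold change 0.72, SE 0.30, unadjusted p 0.0428, adjusted p 0.999). The list had 10 of 13 positive fold changes, and 10 of 13 also without case 6. Restraints of adipogenesis had 5 of 6 positive, among them Klf2, a repressor of Pparg, with a mean of 40.5 ± 8.47 CPM over the case libraries and 23.6 ± 6.98 CPM over the controls (unadjusted p 0.0174, adjusted p 0.999, from edgeR).

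Case 6 was highest in 3 of 9 fatty acid uptake genes (median log2 fold change 0.0071) and in 2 of 8 insulin-responsive glucose genes (median 0.12). Fabp5, the fatty acid carrier of epithelium, was at 20.7, 35.2 and 35.9 CPM in case 5, 6 and 9, against 201.5, 53.1 and 55.6 CPM in control 5, 6 and 10 (unadjusted p 0.0135, adjusted p 0.999). Its groups were separate. Its highest value was in control 5, the library with 3720 CPM of oral epithelium markers, whose part in the result was not tested. Slc2a4, the insulin-responsive glucose transporter of fat and muscle, was at 15.3, 21.4 and 11.5 CPM in case 5, 6 and 9, against 13.9, 19.7 and 23.6 CPM in control 5, 6 and 10. Cav1, the caveola protein abundant in fat cells and endothelium, averaged 61.6 ± 3.65 CPM in the case libraries and 110.4 ± 34.7 CPM in the controls, with separate groups (log2 fold change -0.84, SE 0.22, unadjusted p 0.00628, adjusted p 0.999).

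The marrow stroma list had Cxcl12, the chemokine of the stromal niche, at 532.2, 1255 and 611.2 CPM in case 5, 6 and 9, against 590.9, 349.2 and 488.7 CPM in control 5, 6 and 10. Case 6 was 2.05-fold above case 9. Vcam1, the adhesion molecule of marrow stroma and endothelium, averaged 156.0 ± 31.2 CPM in the case libraries and 82.2 ± 16.4 CPM in the controls, with separate groups (log2 fold change 0.92, SE 0.22, unadjusted p 0.0031, adjusted p 0.999). Lepr, the leptin receptor that marks adipogenic stroma in mice, was at 40.6, 33.5 and 16.2 CPM in case 5, 6 and 9, against 28.6, 22.4 and 24.3 CPM in control 5, 6 and 10. Of the list, 4 of 8 fold changes were positive, Ebf3 (log2 fold change 0.53, separate groups) being among them. The 4 negative ones were Pdgfrb (-0.36, separate groups), Pdgfra (-0.25), Foxc1 (-0.12) and Kitlg (-0.10).

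Of the 9 marker lists of other cells, 2 had their lowest or highest sum in case 6, erythroid and macrophage, and their part in its adipocyte values was not tested. Erythroid markers, all 10 present, summed to 1970 CPM in case 6, within a range of 1970 to 21028.5 CPM in case and 12857 to 22318 CPM in control, so that case 6 was the lowest library. Macrophage markers, 9 of 10 present with Marco at 0, summed to 2075 CPM in case 6, the highest library, within 1218 to 2075 CPM in case and 1171 to 1671 CPM in control. Skeletal muscle markers, all 12 present, summed to 466.7 CPM in case 6, within 151.8 to 1604 CPM in case and 11.4 to 1432 CPM in control. Case 6 thus held less muscle RNA than case 9, control 6 or control 10. Endothelium markers summed to 593.7 CPM in case 6 (544.9 to 711.9 CPM in case, 694.7 to 788.6 CPM in control). All 10 had negative fold changes (median log2 -0.31), against 8620 of 16066 tested genes. Of the 10, 3 had an unadjusted edgeR p under 0.05 (4.15% of all tested genes) and 2 had separate groups (8.47%). Their part in the lower values of Cav1, Cdh13 and Apln was not tested. The osteoblast list summed to 50631 CPM in case 6 (48324 to 89893 CPM in case, 56716 to 77494 CPM in control) and the osteoclast list to 5844 CPM (4272 to 5941 CPM in case, 4252 to 7802 CPM in control). Salivary gland markers, with Prol1, Vcsa1 and Muc19 at 0, summed to 9.58 CPM (7.51 to 12.7 CPM in case, 5.78 to 15.6 CPM in control). Of 9 marker lists, with 67 tested genes, 0 genes had case 6 at least 2-fold above every other library, against 0.305% of all tested genes. As so few genes of the whole table reach that line, 0 of 67 does not set these lists apart. In the B and T cell lists added later, Fcer2 and Cd3d did reach it.

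**Figure D4:**
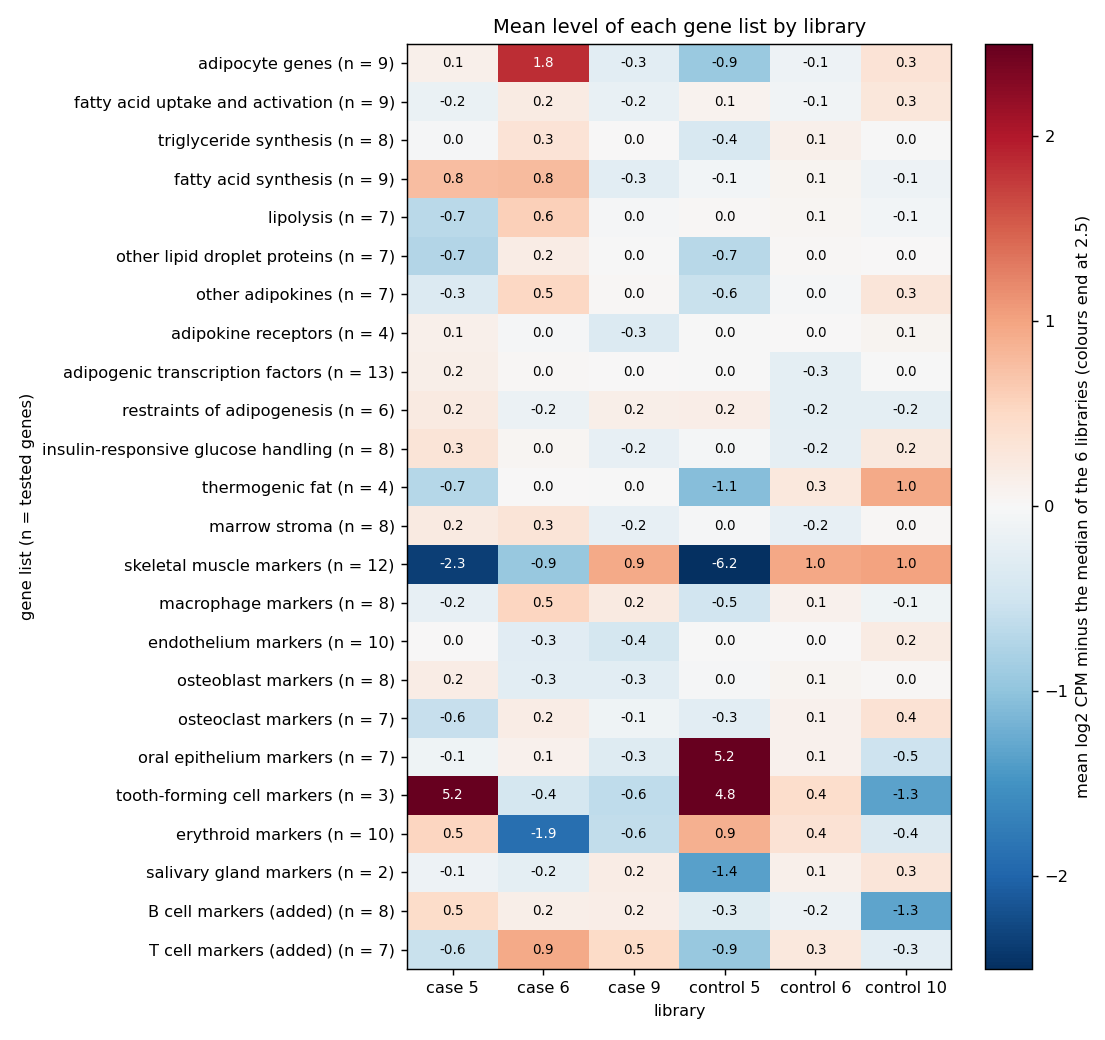
Each cell gives a list's mean log2 CPM over its tested genes in 1 library, minus the median of the 6 libraries (red higher, blue lower, colours ending at 2.5). The adipocyte genes reach 1.85 in case 6 and -0.92 in control 5, while erythroid markers are at their lowest and T cell markers at their highest in case 6.

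The 49 genes with case 6 at least 2-fold above every other library also held lymphocyte genes, which were noticed only after their values were seen. They included Fcer2, a receptor of B cells (12.97 CPM in case 6 and at most 3.28 CPM elsewhere), Cd3d, a subunit of the T cell receptor complex (8.65 and at most 4.25 CPM), Ccr7, Cd27 and Lax1. Lists of 8 B cell and 8 T cell markers were therefore added. The T cell list summed to 272.9, 378.1 and 279.0 CPM in case 5, 6 and 9, against 247.8, 270.4 and 244.1 CPM in control 5, 6 and 10, and case 6 was highest in 6 of 7 tested genes, against 14.2% of all tested genes. Cd4 made up most of each sum, at 233.7, 270.3 and 197.2 CPM in case 5, 6 and 9, against 219.7, 204.6 and 192.7 CPM in control 5, 6 and 10. The sum was higher in case 5 than in control 6, but Cd2, Cd3d, Cd3e, Cd3g, Cd8a and Lck were each lower there. The sum is thus mainly a reading of Cd4. For the B cell list the sums were 199.5, 191.6 and 149.9 CPM in case 5, 6 and 9, against 141.0, 129.9 and 55.8 CPM in control 5, 6 and 10, and case 6 was highest in 3 of 8, against the same 14.2%. Both lists were added because lymphocyte genes stood out in case 6, and Fcer2 and Cd3d are among their members. Their numbers of genes highest in case 6 are thus description and no test. All 16 markers had counts, and the part of these markers in the adipocyte values was not tested.

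Likeness to the adipocyte genes was measured as Pearson's r over the 6 libraries between a gene's log2 CPM and the mean standardized log2 CPM of the 9 tested genes. Among 12767 other genes averaging at least 1 CPM, the 8 most alike were Agt (r = 0.996), Cidea (0.978), R3hdm4 (0.975), Ilvbl (0.970), Cnr2 (0.963), Tcp11 (0.960), Ms4a4a (0.958) and Ctla2a (0.951). Both Agt and Cidea were on the lists of fat biology. The measure ignores size: R3hdm4 was at 173.9 CPM in case 6 and 136.2 to 150.4 CPM elsewhere, while Ms4a4a was 3.07-fold above every other library. With 6 points, of which case 6 stands apart, such a value describes these libraries only.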

How the data were processed

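The deposited data are 1 table with whole-number counts for each gene symbol in 6 libraries, and its values show no normalization by the authors. Per the labels' protocols, single-end libraries were made with an Ion Total RNA-Seq kit from TRIzol-extracted total RNA. How reads were aligned and counted, and against which build and annotation, is not given in the sources used here. Columns were matched to libraries by title.

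Genes were filtered with filterByExpr, scaled by TMM (trimmed mean of M-values) and fitted in edgeR 4.0.16 (R 4.3.3) by quasi-likelihood, with group as the only term and Benjamini-Hochberg adjustment over 16066 genes. SEs were derived from the fold change and its F statistic. CPM are counts over the TMM-scaled library size; log2 CPM used a prior count of 2. DESeq2 1.42.0, limma-voom (limma 3.58.1), other scalings and filters, and fits without single libraries were alternatives. The fit was also run on simulated counts whose changed genes shifted alike in every library of a group. That setting does not cover a difference carried by a single library, and its outcome is not used here. Within-group library pairs differed by more than counting noise (chi-square per degree of freedom of at least 24.4).

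The 10 genes, the 21 other lists, and the alternatives were chosen with earlier results of these data known. The lists with 6 older symbols matched and 4 genes not found were used as they stood; B and T cell lists were added later. Named genes were the 10, up to 2 with the smallest p in each list of fat biology, and the 8 most alike in pattern. Plin2, Pnpla2, Fasn, Slc2a4, Lepr, Cxcl12 and the negative genes of the stroma list were named after their values were seen. So were the thermogenic genes at 0 and the lymphocyte genes. Promoter windows were RefSeq's.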

Additional observations from a re-analysis of the deposited data

How the results depend on the processing

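Across 16 alternatives, the 9 fold changes kept their direction in 138 of 144 comparisons, and 0 of the adipocyte genes passed the adjusted threshold in any of them. The 6 turns were Plin4 (-0.04), Adipoq (-0.017), Fabp4 (-0.45) and Lpl (-0.30) without case 6, Plin4 without control 5 (-0.10), and Lpl without control 6 (-0.0099). The median log2 fold change of the 9 genes, 1.26, ranged from 0.20 (without case 6) to 1.66 (without case 5) when 1 library was left out. On the same terms Plin4 ranged from -0.10 to 0.95, Adipoq from -0.017 to 1.97, Fabp4 from -0.45 to 1.23 and Lpl from -0.30 to 0.45. The lowest median arises from leaving out the library with the highest values in 8 of 9 genes. Genes called over the whole table numbered 0, but 26 with DESeq2 and 0 to 2 with 1 library left out (2 without control 5); the cause was not tested. With the title number as a replicate block, 0 genes were called overall and 0 of the 9, and the median was 1.36. Of the 9 log2 fold changes, 4 were over 1.5 times as large with the block: Adipoq (2.47 with it, 1.36 without), Fabp4 (1.36, 0.45), Plin4 (0.98, 0.29) and Lpl (0.55, 0.15). With the block 7 of the 9 had an unadjusted p under 0.05, against 4.06% of all genes, the smallest adjusted p being 0.239 (Adipoq). In that fit case 9 and control 10 are each alone in a block and add nothing to the group difference. It rests on case 5, case 6, control 5 and control 6 only, so it compares fewer libraries than the main fit. Adipoq was 5.91-fold higher in case 5 than in control 5, and 5.25-fold higher in case 6 than in control 6. The numbers are not said to pair libraries, and only 2 are shared: deviations from the group means correlated at 0.38 for number 5 and 0.14 for number 6 across genes, and at -0.34 to 0.28 for the 7 pairs with unlike numbers, 2 of which (case 9 with control 6, case 6 with control 10) were above number 6. Low counts limit Lep, with at most 5 in a library, and Pnpla2, with 1 count in case 5. Case 5 was deeper than control 5 (12599324 against 10886303 counts), where Pnpla2 had 48 counts. The cause of the low Pnpla2 count in case 5 was not tested.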
